A study of Homo sapiens with 4 samples.

Results

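TP53INP1 and SESN1 are 2 of the 14812 genes that could be named on the arrays of this series. They were picked by name as targets of p53 and of the FOXO factors that were higher with SSRP1 siRNA, each through the single probe set that carries its symbol. The difference between SSRP1 siRNA and control siRNA chose them, so for both genes that difference is given as a description, without a test. The samples are BE(2)C, a human neuroblastoma cell line known to carry mutant p53, grown in DMEM with serum and transfected by lipid reagent. Of the 4 arrays, 2 come from cells given siRNA against SSRP1, for which the labels list a single catalogue item, and 2 from cells given non-targeting siRNA. RNA was collected 72 hours after transfection in every sample. No second siRNA against SSRP1 was analysed here, so an effect of losing SSRP1 and an off-target effect of this siRNA cannot be told apart. Nothing in the labels states that replicates were grown separately, and all p-values reflect the spread between these arrays, which may be technical.

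SSRP1 is a subunit of FACT, a chaperone that opens and rebuilds nucleosomes, and FACT bound to casein kinase 2 is also known to help phosphorylate p53 after ultraviolet light. TP53INP1 encodes a stress-induced nuclear protein that binds p53 and the kinase HIPK2, favours the phosphorylation of p53 and the killing of damaged cells, and outside the nucleus binds LC3-type proteins on autophagosomes. SESN1 encodes sestrin 1, a member of the sestrin family, which holds down the growth kinase complex mTORC1 by binding its regulator GATOR2 and helps antioxidant defence through KEAP1 and NRF2. Both genes are transcribed by p53 and also by FOXO factors, which act when AKT signalling is low.

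The arrays were alike in distribution, with median log2 values over all probe sets between 3.37 and 3.42, and correlations between pairs of arrays lay between 0.990 and 0.993. The siRNA target SSRP1 had log2 values of 7.42 and 6.97 on the SSRP1 siRNA arrays, against 9.05 and 9.23 on the control siRNA arrays. It fell by 1.95 ± 0.17 (SE) on the log2 scale, with a limma adjusted p of 0.0479. With an array left out no gene of the table passed, and SSRP1 had changes of -2.17 to -1.72 with adjusted p of 0.241 to 0.599. The 8 noradrenergic markers measured, which define this cell type, had log2 values between 6.33 and 9.78 on all arrays. Of these 7 had changes below 0, and the summed linear level of all 8 was 2900 and 3030 with SSRP1 siRNA, against 3400 and 3400 with control siRNA. The log2 changes ran from -0.77 (DBH) to 0.34 (CHGA). An unadjusted limma p under 0.05 was seen for 4 of the 8, 1 higher and 3 lower (50%, against 12.6% of all genes). For the markers of other cell types the summed level was 130 and 118 with SSRP1 siRNA, against 113 and 109 with control siRNA, for 5 Schwann and glial genes. For 3 fibroblast genes it was 494 and 437 with SSRP1 siRNA, against 296 and 210 with control siRNA. For 4 blood and endothelial genes it was 99.2 and 96.8 with SSRP1 siRNA, against 120 and 101 with control siRNA. None of these 20 marker genes passed limma's test over all genes, DCN of fibroblasts stayed between 2.51 and 2.66 on every array, and LUM, with a log2 change of 1.20, held most of the fibroblast sum. The part of these markers in the results below was not tested, and in bulk RNA fewer cells of a kind and less RNA per cell cannot be told apart.

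TP53INP1 was higher on both SSRP1 siRNA arrays. Its log2 values there were 4.03 and 4.40, against 3.17 and 2.92 on the control siRNA arrays. The groups did not overlap, as for 44.3% of all genes, 21.8% higher and 22.5% lower, and the lowest SSRP1 siRNA value lay 0.86 above the highest control siRNA value. The means were 4.21 ± 0.26 with SSRP1 siRNA and 3.04 ± 0.18 with control siRNA (SD, n = 2 each), a log2 change of 1.17 ± 0.16 (SE), or 2.25-fold. Each SSRP1 siRNA array set against each control siRNA array gave a difference between 0.86 and 1.48. TP53INP1 ranked 33 among the rises of all genes. The control siRNA values lay under the medians of all probe sets on their arrays, 3.40 and 3.42. No detection values were used here, so those dim values can include background, and a change from a dim level can be compressed on this scale. TP53INP1 was also chosen for a high difference, which can make its change look larger, and neither effect was measured.

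SESN1 was higher by a smaller amount with SSRP1 siRNA. It had log2 values of 5.43 and 5.30 on the SSRP1 siRNA arrays, against 4.83 and 4.89 on the control siRNA arrays, and the groups were 0.41 apart at their nearest. The means were 5.37 ± 0.093 with SSRP1 siRNA and 4.86 ± 0.044 with control siRNA (SD, n = 2 each), a log2 change of 0.50 ± 0.11 (SE), or 1.42-fold. All differences between an SSRP1 siRNA array and a control siRNA array lay between 0.41 and 0.60. Among the rises of all genes SESN1 ranked 331. The SDs of SESN1 were smaller than those of TP53INP1 in both groups. Groups did not overlap for either gene, as for 44.3% of all genes, 21.8% higher and 22.5% lower.

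**Figure D1:**
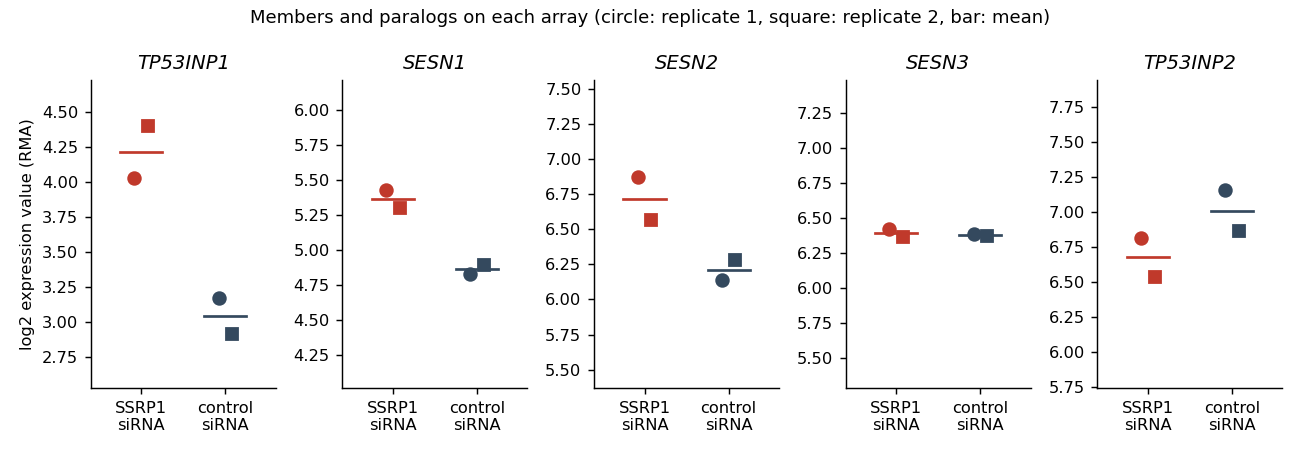
Log2 expression values (vertical axis, same span in every panel) of TP53INP1, SESN1 and their paralogs on each array, with SSRP1 siRNA at the left and control siRNA at the right of each panel. Circles are replicate 1, squares replicate 2 and bars group means. TP53INP1, SESN1 and SESN2 lie higher on both SSRP1 siRNA arrays, SESN3 lies between 6.36 and 6.42 on all 4 arrays, and TP53INP2 lies lower with SSRP1 siRNA by 0.05 at the nearest arrays.

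The SESN1 gene has 3 annotated starts in RefSeq (GRCh38.p14), and the sequence around each is shown because the gene was chosen as a target of p53 and FOXO factors and a single probe set cannot tell which start was used. The windows run from 250 bases before the start to 50 bases after it, on the minus strand of chromosome 6, at chr6:109094797-109095096, chr6:109009503-109009802 and chr6:109008939-109009238, numbered from upstream to downstream. Capitals mark the letters that match the p53 half-site.
SESN1 start 1: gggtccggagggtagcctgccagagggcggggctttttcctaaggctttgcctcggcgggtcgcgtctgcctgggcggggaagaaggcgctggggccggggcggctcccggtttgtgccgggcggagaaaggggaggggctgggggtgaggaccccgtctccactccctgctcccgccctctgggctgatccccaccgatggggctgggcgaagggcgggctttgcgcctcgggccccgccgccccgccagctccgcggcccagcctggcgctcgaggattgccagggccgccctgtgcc
SESN1 start 2: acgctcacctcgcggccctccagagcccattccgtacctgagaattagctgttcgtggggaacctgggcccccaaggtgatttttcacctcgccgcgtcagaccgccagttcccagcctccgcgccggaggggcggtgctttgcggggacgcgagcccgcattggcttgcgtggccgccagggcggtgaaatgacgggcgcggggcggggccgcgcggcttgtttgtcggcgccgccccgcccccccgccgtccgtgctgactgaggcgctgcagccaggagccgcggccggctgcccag
SESN1 start 3: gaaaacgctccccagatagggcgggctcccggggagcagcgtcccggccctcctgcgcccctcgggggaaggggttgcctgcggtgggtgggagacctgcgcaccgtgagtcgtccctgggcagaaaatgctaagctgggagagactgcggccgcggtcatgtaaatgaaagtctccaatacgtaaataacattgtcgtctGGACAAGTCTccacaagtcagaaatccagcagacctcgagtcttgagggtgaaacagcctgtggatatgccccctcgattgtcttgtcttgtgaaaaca
Each window was searched on both strands for the p53 half-site, the FOXO core TGTTTAC, the ATF4 element TGATGNAA and the E-box CACGTG. A single match was found, a p53 half-site with the letters GGACAAGTCT whose first base lies at position -49 from the third start. Of 35116 RefSeq windows of the same length 6.63% hold a p53 half-site, 3.42% a FOXO core, 3.62% the ATF4 element and 7.26% the E-box. The windows of SESN2, SESN3 and TP53INP2 held none of these letters. Windows of TP53INP1 were not searched here. A match describes the sequence and shows no binding, and p53 and FOXO sites outside these windows were not searched.

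The other sestrin genes were SESN2, whose values were higher with SSRP1 siRNA without passing the test, and SESN3, whose groups overlapped. SESN2, a sestrin that senses leucine and is induced by ATF4 as well as p53, had values of 6.88 and 6.56 with SSRP1 siRNA, against 6.14 and 6.28 with control siRNA. Its groups did not overlap, as for 44.3% of all genes, 21.8% higher and 22.5% lower. The log2 change of SESN2 was 0.51 ± 0.14 (SE), with a 95% interval of 0.16 to 0.85, a limma adjusted p of 0.271 (0.0119 before adjustment). It therefore did not pass the test over all genes, which 0.0945% of genes did. Without SSRP1 siRNA replicate 1 the SESN2 change was 0.35, and without SSRP1 siRNA replicate 2 it was 0.66. Its difference from the change of SESN1 was not tested. SESN3, known as a FOXO target, had values of 6.42 and 6.36 with SSRP1 siRNA, against 6.39 and 6.37 with control siRNA, and these overlapped. Its log2 change of 0.012 had a 95% interval of -0.23 to 0.25 (limma adjusted p = 0.975), and its sign turned to -0.014 after quantile normalization. The change measured for SESN1 lay outside that interval. SESN1 was chosen for being high, however, and the difference between SESN3 and SESN1 was not tested. Sestrin levels are not set against each other here, since each comes from its own probes.

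TP53INP2, the paralog of TP53INP1 that also works in autophagy, had the opposite sign. Its values were 6.81 and 6.54 with SSRP1 siRNA, against 7.15 and 6.86 with control siRNA. The log2 change was -0.33 ± 0.15 (SE), with a 95% interval of -0.71 to 0.046 and a limma adjusted p of 0.451. The groups lay 0.05 apart at their nearest, and they overlapped after median centring, and the change ran from -0.48 to -0.18 with an array left out, so this difference was within reach of the spread between arrays.

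No measured member of the p53 family or its regulators passed the test. Of 20 listed members of the p53 family and its regulators 11 were measured, and 3 had a limma p under 0.05 before adjustment, all lower, where 12.6% of all genes had one and 6.03% were lower. MDM4, an inhibitor of p53, had values of 6.98 and 6.68 with SSRP1 siRNA, against 7.21 and 7.12 with control siRNA, a log2 change of -0.34 ± 0.13 (SE, limma adjusted p = 0.386). HIPK2, the kinase partner of TP53INP1, had values of 7.70 and 7.61 with SSRP1 siRNA, against 8.12 and 7.87 with control siRNA, a change of -0.34 ± 0.12 (SE, limma adjusted p = 0.368). ATR, a kinase of the replication checkpoint, had a change of -0.33 (limma adjusted p = 0.334). TP73, the p53 relative that also induces TP53INP1, had values of 5.18 and 5.15 with SSRP1 siRNA, against 4.90 and 5.27 with control siRNA, with a change of 0.08 ± 0.15 (SE). The median change of the 11 genes was -0.11, against -0.0072 for all genes, and -0.17 without SSRP1 siRNA replicate 1. These values rest on the choice of arrays: the change of MDM4 was -0.49 when SSRP1 siRNA replicate 1 was left out and -0.19 when it was SSRP1 siRNA replicate 2, and that of HIPK2 was -0.21 without control siRNA replicate 1 and -0.46 without control siRNA replicate 2.

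None of the FOXO transcripts measured passed the test. FOXO1 had values of 3.82 and 3.96 with SSRP1 siRNA, against 3.98 and 3.99 with control siRNA, and a log2 change of -0.10 ± 0.11 (SE). The changes were -0.06 for FOXO3 and 0.0046 for FOXO4, and the limma adjusted p of the 3 genes lay between 0.754 and 0.993. FOXO3 has 2 probe sets, of which that with the higher mean was read. The mean of both gave a change of -0.063. Of 25 listed FOXO and PI3K-AKT genes 14 were measured. None passed limma's test, which 0.0945% of all genes did. None had an unadjusted p under 0.05, against 12.6% of all genes. The smallest p belonged to SGK2, a kinase of the AKT class (-0.23), followed by SGK1, a kinase that like AKT phosphorylates FOXO proteins (0.38), and IGF1R, the insulin-like growth factor receptor (-0.17), with limma adjusted p between 0.438 and 0.588. SGK2 had values of 2.49 and 2.57 with SSRP1 siRNA, against 2.71 and 2.82 with control siRNA. These lie under the medians of all probe sets on their arrays and can include background. With an array left out the change of SGK1 ran from 0.17 (without control siRNA replicate 1) to 0.59 (without control siRNA replicate 2), and that of IGF1R from -0.23 to -0.11. FOXO activity is set mainly by phosphorylation and location, which the arrays do not measure.

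The other p53 targets lay on both sides of 0. Without TP53INP1 and SESN1, 33 of 56 listed genes were measured, 13 above 0 and 20 below, with a median log2 change of -0.069. That median was -0.125 without control siRNA replicate 2, with 9 genes above 0, and -0.036 without control siRNA replicate 1, with 16 above 0. None passed limma's test over all genes. An unadjusted p under 0.05 was seen for 5 genes (15.2%, against 12.6% of all genes), of which SESN2 was higher and 4 were lower, where 6.56% and 6.03% of all genes are so. CMBL, a hydrolase, had values of 4.94 and 5.07 with SSRP1 siRNA, against 5.41 and 5.54 with control siRNA, a change of -0.47 ± 0.11 (SE, limma adjusted p = 0.216). NINJ1, which drives membrane rupture in dying cells, had a change of -0.31 (limma adjusted p = 0.333). The groups did not overlap for 5 genes that were higher and 12 that were lower, where 21.8% and 22.5% of all genes are so. Several main p53 targets are not analysed here, so these counts cover a part of the response. TP53INP1 and SESN1 themselves were picked from an earlier list of p53 targets in these data because they were high, and their place at the upper end of this group is no independent evidence.

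**Figure D2:**
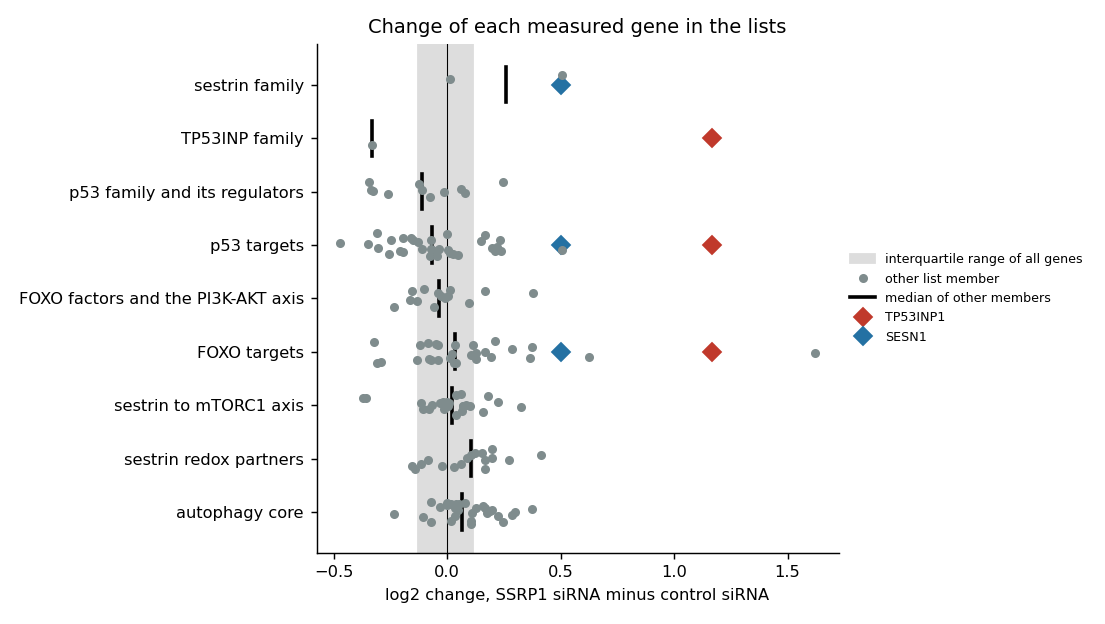
Log2 change, SSRP1 siRNA minus control siRNA (horizontal axis), of every measured gene of the 9 lists (rows). Grey points are the other list members, black bars their medians, diamonds TP53INP1 and SESN1, and the grey band is the interquartile range of all genes, from -0.13 to 0.12. The median of the other members lies between -0.11 and 0.11 in every list but the 2 paralog families, and KLF2 is the point at 1.62 among FOXO targets.

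Among FOXO targets a single gene passed the test as higher and none passed it as lower. Without TP53INP1 and SESN1, 28 of 42 listed genes were measured, and KLF2, a zinc finger factor that FOXO factors induce in lymphocytes, passed. It had values of 7.54 and 7.56 with SSRP1 siRNA, against 5.89 and 5.96 with control siRNA, and rose by 1.62 ± 0.099 (SE) on the log2 scale (limma adjusted p = 0.0267). The count was 1 of 28, against 0.0945% of all genes. With an array left out the KLF2 change lay between 1.59 and 1.65, while no gene of the whole table passed in those fits. With an unadjusted p under 0.05 there were 3 higher and 3 lower genes, 21.4% of the list against 12.6% of all genes. The list was written with earlier results of these data known, so neither share is independent evidence. ATG14, a subunit of the lipid kinase complex that starts autophagosomes, had values of 6.08 and 6.22 with SSRP1 siRNA, against 5.84 and 5.72 with control siRNA, a change of 0.38 ± 0.11 (SE, limma adjusted p = 0.297). BCL6, a transcriptional repressor, had a change of -0.31 (limma adjusted p = 0.334). The list had 17 genes above 0 and 11 below, with a median of 0.033, which ran from 0.0043 without control siRNA replicate 2 to 0.069 without control siRNA replicate 1.

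Genes through which sestrins reach mTORC1 showed no common direction. Of 41 listed genes 24 were measured, none passed limma's test over all genes, and 3 had an unadjusted p under 0.05 (12.5%, against 12.6% of all genes). DEPTOR, an inhibitory subunit of mTOR complexes, had values of 6.20 and 6.26 with SSRP1 siRNA, against 6.63 and 6.54 with control siRNA, a change of -0.36 ± 0.10 (SE, limma adjusted p = 0.281). KICS2, of the complex that holds GATOR1 at the lysosome, had a change of -0.37, and DEPDC5, the GATOR1 subunit that acts on the RAG proteins, a change of 0.32 (limma adjusted p = 0.357 and 0.363). With an array left out the KICS2 change ran from -0.52 to -0.22. The list had 15 genes above 0 and 9 below, with a median of 0.022, and that median was -0.018 without control siRNA replicate 2 and 0.076 without control siRNA replicate 1. Whether mTORC1 activity differed was not measured.

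The antioxidant partners of sestrins had a slightly positive median. Of 24 listed genes 17 were measured, with 12 above 0 and 5 below and a median log2 change of 0.11, against -0.0072 for all genes. None passed limma's test, and 1 of 17 had an unadjusted p under 0.05 (5.88%, against 12.6% of all genes). That gene was KEAP1, the adaptor that marks NRF2 for destruction and that sestrins bind, with values of 7.29 and 7.40 with SSRP1 siRNA, against 6.82 and 7.04 with control siRNA. The log2 change of KEAP1 was 0.41 ± 0.12 (SE, limma adjusted p = 0.293). GPX4, which removes lipid peroxides, had a change of 0.27, and NFE2L2, which encodes NRF2, a change of 0.20 (limma adjusted p = 0.420 and 0.490), and with an array left out the GPX4 change ran from 0.18 to 0.36. The median of the list was 0.030 without SSRP1 siRNA replicate 2 and 0.031 without control siRNA replicate 1, and 0.17 without either of the other arrays, so it rests on the choice of arrays.

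Autophagy genes, the machinery to which TP53INP1 binds outside the nucleus, were mostly above 0 by small amounts. Of 40 listed genes 30 were measured, 25 above 0 and 5 below, with a median log2 change of 0.065. Over all 14812 genes 7149 were above 0 and 7663 below, with a median of -0.0072. None passed limma's test over all genes, and 2 had an unadjusted p under 0.05 (6.67%, against 12.6% of all genes). The groups did not overlap for 15 genes that were higher and 2 that were lower, where 21.8% and 22.5% of all genes are so. Besides ATG14, the lipid transfer gene ATG2A had values of 5.53 and 5.41 with SSRP1 siRNA, against 5.24 and 5.11 with control siRNA, a change of 0.30 ± 0.11 (SE, limma adjusted p = 0.369). ULK2, a kinase that starts autophagy and that mTORC1 inhibits, had a change of 0.28 (limma adjusted p = 0.401), between 0.19 and 0.38 with an array left out. After quantile normalization 23 genes were above 0 and 11 were higher without overlap, where 21.3% of all genes were higher without overlap. Among genes at or above the median level, 13 of 24 listed genes were higher without overlap, against 27.7% of all such genes. With each array left out between 20 and 25 genes were above 0, with a median between 0.056 and 0.098. Genes of a list are not independent of each other, and no test of the list was made.

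The genes whose pattern over the 4 arrays came nearest to each of the 2 genes were found by Euclidean distance between log2 values centred on each gene's mean. For TP53INP1 these were FAXDC2, of the fatty acid hydroxylase family (distance 0.125), SPOPL, an adaptor of a ubiquitin ligase (0.208), CTSO, a lysosomal protease (0.230), MINAR1, a membrane protein (0.234), and SOX7, a transcription factor of the SOX family (0.247), where the median gene lay at 1.23. FAXDC2 had values of 7.78 and 7.99 with SSRP1 siRNA, against 6.90 and 6.58 with control siRNA, so its second SSRP1 siRNA array was the highest and its second control siRNA array the lowest, as for TP53INP1. For SESN1 they were RFPL3, a ret finger protein-like gene (0.0323), SRSF6, a splicing factor (0.0374), CLK4, a kinase of splicing factors (0.0408), MYO1C, a myosin (0.0526), and TMEM17, a protein of the base of the cilium (0.0553), where the median gene lay at 0.562. CLK4 had values of 5.53 and 5.44 with SSRP1 siRNA, against 4.96 and 4.98 with control siRNA. RFPL3 lay near the bottom of the scale, at 1.57 and 1.47 with SSRP1 siRNA, against 0.96 and 1.04 with control siRNA. Distances over 4 arrays follow the size of the change above all, and with 1 array left out between 0 and 2 of the 5 genes stayed among the 5 nearest to TP53INP1 and between 0 and 1 among those nearest to SESN1.

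**Figure D3:**
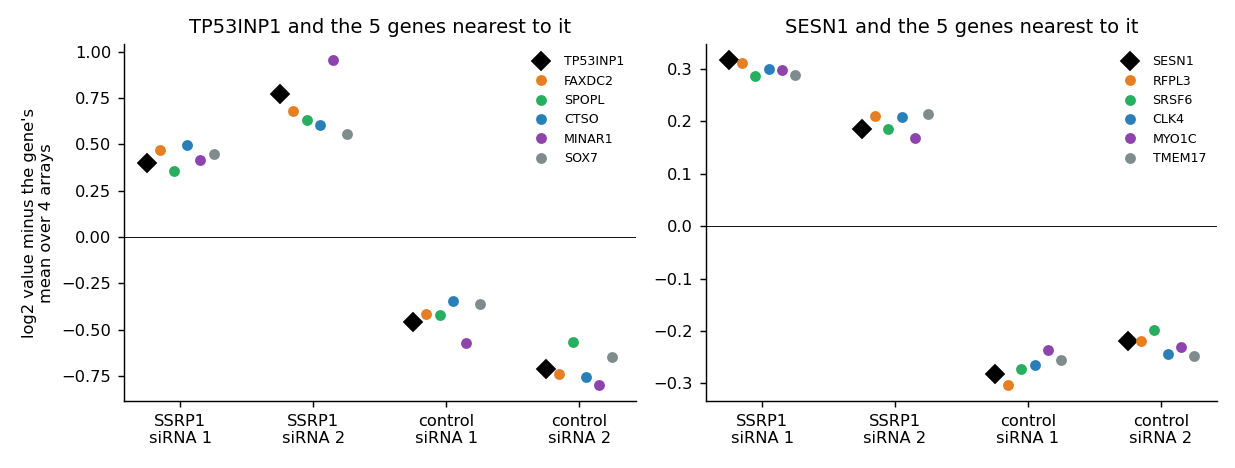
Log2 values minus each gene's mean over the 4 arrays (vertical axis, a different span in each panel) for TP53INP1 and SESN1 (black diamonds) and the 5 genes nearest to each (coloured points), by array (horizontal axis). Every gene shown lies above 0 on both SSRP1 siRNA arrays and below 0 on both control siRNA arrays. TP53INP1 and its neighbours are highest on SSRP1 siRNA replicate 2, and SESN1 and its neighbours on SSRP1 siRNA replicate 1.

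The values of TP53INP1 and SESN1 were recomputed under other scalings and with fewer arrays. Quantile normalization gave a log2 change of 1.19 for TP53INP1 and 0.51 for SESN1, and centring each array on its median gave 1.19 and 0.52. Leaving out each array gave between 0.98 and 1.35 for TP53INP1 and between 0.44 and 0.57 for SESN1. Since the genes were chosen for being higher and their groups do not overlap, the sign could not turn when an array was left out.

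**Figure D4:**
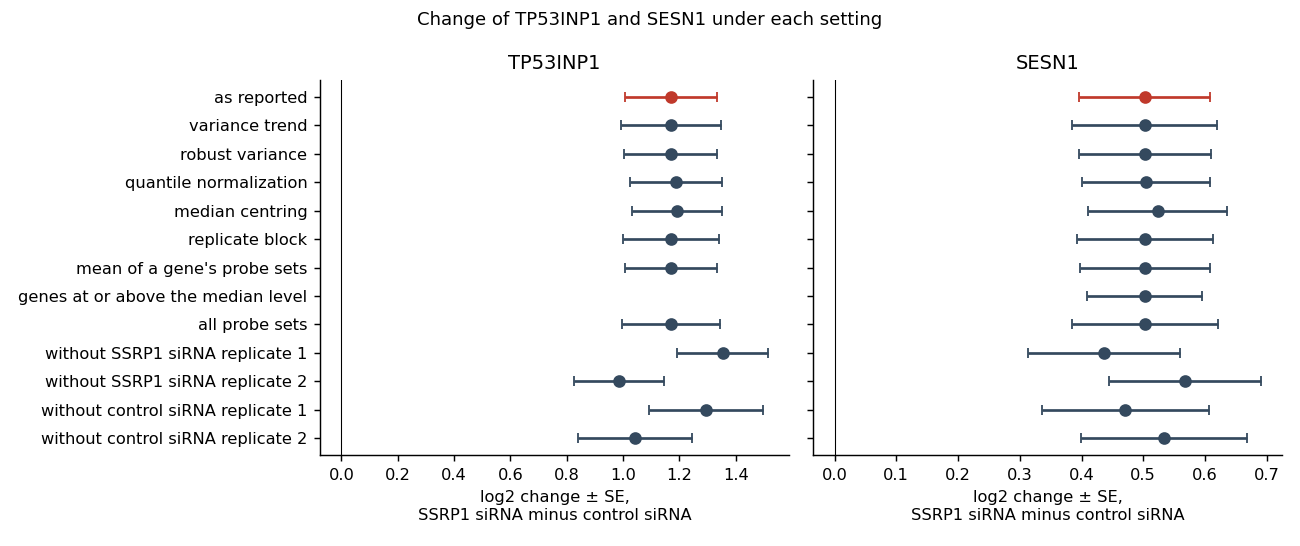
Log2 change ± SE, SSRP1 siRNA minus control siRNA (horizontal axis), of TP53INP1 (left) and SESN1 (right) as reported (red) and under each other setting (rows). All values lie above 0, and TP53INP1 has no value where genes under the median level were left out.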

How the data were processed

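The authors deposited log2 values for each probe set, and RMA is the tool that the submitters' processing notes name. The RMA software and its version are not stated in those notes. The log2 scale was read from the values. Of 46255 probe sets, 15835 had 1 gene symbol through the platform annotation, 0 had several and 30420 were unnamed here. All gene IDs of named sets were found in the RefSeq gene table and 0 symbols changed. Each of 14812 genes was read from its probe set of highest mean.

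The test was limma (version 3.58.1, R 4.3.3), lmFit and eBayes over all genes on the deposited log2 values, SSRP1 siRNA minus control siRNA, without block or filter, two-sided, with 2 residual and 3.79 prior degrees of freedom. Adjustment was by Benjamini-Hochberg, with a threshold of 0.05. The procedure was run on simulated data with independent normal noise and variances drawn from its own fitted prior. That run checks the code and not whether the arrays meet these assumptions. The members, gene lists and tests were chosen with earlier results of these data known. Named genes were TP53INP1, SESN1, SSRP1, their paralogs, p53 family, FOXO and MDM genes, the 3 genes of each list past the test with the largest change or otherwise of smallest p, and the 5 genes nearest to each member. Of the genes always named, 5 are not analysed here. Alternatives were a variance trend, robust variances, quantile normalization, median centring, a replicate block, the mean of probe sets, genes at or above the median level, all probe sets and each array left out. The number of arrays limits the precision.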

Additional observations from a re-analysis of the deposited data

How the results depend on the processing

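The change of TP53INP1 was 1.17 to 1.19 and that of SESN1 0.50 to 0.52 under the alternatives that kept all 4 arrays. TP53INP1 had no value where dimmer genes were left out. With each array left out the changes were 0.98 to 1.35 and 0.44 to 0.57, where the sign could not turn because the groups do not overlap. Over all genes 14 passed. The count was 215 with a variance trend, 28 after quantile normalization, 23 after median centring, 179 among genes no dimmer than the median gene, 9 with robust variances, 6 with the replicate block, and 0 over all probe sets, where 3854 had an unadjusted p under 0.05 in limma. With each array left out it was 0 (lowest 0, highest 0), with 1200 to 1672 genes at an unadjusted p under 0.05 in limma on 1 residual degree of freedom. The SSRP1 change was -1.95 with robust variances (limma adjusted p = 0.0512), with the replicate block (0.0569) and over all probe sets (0.144), while its adjusted p was 0.00314 with a variance trend and 0.0250 after quantile normalization. With each array left out it ran from -2.17 to -1.72, with limma adjusted p from 0.241 to 0.599. In the FOXO target list, KLF2 did not pass over all probe sets or with any array left out, a count of 0, where no other feature passed either. Its change was 1.62 over all probe sets and 1.59 to 1.65 with an array left out, and its limma adjusted p was 0.00126 with a variance trend. Among the further named genes 12 calls were gained, all among the genes nearest to TP53INP1 and SESN1, with a variance trend (such as SOX7, limma adjusted p = 0.00744) or without the dimmer genes. Those genes were picked for their likeness to genes chosen for being high in the same comparison. Their calls are therefore no independent evidence. The sign of SESN3 turned after quantile normalization (-0.014), and with an array left out its change ran from -0.015 to 0.039. That of FOXO4 ran from -0.059 to 0.068 and that of TP73 from -0.11 to 0.26. The replicate block rests on numbers alone, since same-numbered arrays deviated together with a correlation of 0.114 over genes and the labels state no pairing. It changed no other call among the named genes. The medians of lists and the nearest genes were recomputed as alternatives chosen after seeing the data. Arrays give no detection values here, so dim genes such as TP53INP1 with control siRNA may carry background.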
